A study of Mus musculus with 28 samples.

Results

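Abca8a, Abca8b, Abca9 and Abca6 are 4 neighbouring genes of mouse chromosome 11 that encode lipid transporters of the ATP-binding cassette A (ABCA) family. They were 4 of the 47643 gene rows counted in each of 28 libraries, matched by Ensembl identifier (ENSMUSG00000041828, ENSMUSG00000020620, ENSMUSG00000041797 and ENSMUSG00000044749). The genes were chosen by their measured CPM (reads of a gene per 1000000 reads in genes): high in GFP+ thyroid libraries and absent from GFP+ salivary gland libraries. Those levels, and the differences of GFP+ thyroid from GFP− thyroid and from GFP+ salivary gland, are therefore a description without a test. Fits of age that take in GFP+ libraries are given as values of the fit. The libraries came from H2B-GFP mice, whose cells carry a green fluorescent histone that dividing cells dilute and rarely dividing cells keep. Freshly sorted GFP− and GFP+ cells were sequenced. Thyroid gland was taken at 3, 6 and 9 months, with 4, 4 and 3 libraries in each fraction, and salivary gland at 9 months, with 3 libraries in each fraction. All 8 groups carried the H2B-GFP transgene, and the labels name no strain, sex, drug or promoter behind it. The labels do not say whether replicates came from different animals. The p-values thus cover the spread among libraries, which may be technical.

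ABCA proteins are large membrane proteins that use ATP to move lipids across or out of membranes. The best known, Abca1, hands cholesterol and phospholipid to apolipoprotein particles. Mouse Abca8a and Abca8b are the counterparts of human ABCA8, which has been tied to cholesterol efflux and to sphingomyelin production. Abca9 and Abca6 belong to the same cluster of similar genes, and their substrates are less well known. Abca8a is widely seen in fibroblasts of connective tissue.

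The gene order on chromosome 11 was Abca8b, Abca8a, Abca9, Abca6 and Abca5. The promoters of the 3 members with an entry are shown because these genes lie side by side and were high in the same libraries. Each holds 250 bases before and 50 after the annotated start (RefSeq, build GRCm38.p6, minus strand), and capitals mark the E-box CACGTG, a palindrome that reads alike on both strands. No entry was matched for Abca6.
Abca8a, chr11:110095888-110096187: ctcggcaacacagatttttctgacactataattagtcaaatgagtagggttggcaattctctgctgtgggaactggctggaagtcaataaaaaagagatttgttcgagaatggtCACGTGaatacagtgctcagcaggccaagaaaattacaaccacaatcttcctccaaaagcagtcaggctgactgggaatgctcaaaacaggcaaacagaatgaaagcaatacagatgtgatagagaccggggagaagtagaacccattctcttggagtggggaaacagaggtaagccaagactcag
Abca8b, chr11:109995796-109996095: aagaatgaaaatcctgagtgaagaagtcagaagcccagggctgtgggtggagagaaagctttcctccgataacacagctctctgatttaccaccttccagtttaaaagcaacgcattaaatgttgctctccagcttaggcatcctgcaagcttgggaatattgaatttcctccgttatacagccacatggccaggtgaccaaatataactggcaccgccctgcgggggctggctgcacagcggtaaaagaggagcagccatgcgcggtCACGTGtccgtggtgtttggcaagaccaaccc
Abca9, chr11:110168104-110168403: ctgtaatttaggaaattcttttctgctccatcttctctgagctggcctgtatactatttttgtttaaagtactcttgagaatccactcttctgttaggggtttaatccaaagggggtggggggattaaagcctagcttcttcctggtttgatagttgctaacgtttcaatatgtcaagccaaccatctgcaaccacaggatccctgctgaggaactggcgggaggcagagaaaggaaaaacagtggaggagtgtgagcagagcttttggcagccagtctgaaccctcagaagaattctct
The E-box began 136 bases before the start in Abca8a and 18 bases after it in Abca8b. It was not in the window of Abca9, and it stood in 7.15% of 32851 mouse promoters of the same length. The AP-1 motif TGANTCA, searched on both strands, was in none of these 3 windows, against 7.81% of promoters. Nor was the core promoter element TATAAA, which 13.6% held on either strand. GGAATG (TEAD), also searched on both strands, was in Abca8a and in 14.7% of promoters. CpG pairs numbered 4 in Abca8a, 10 in Abca8b and 2 in Abca9, against a median of 7 over all promoters. The neighbour Abca5, whose product is found in lysosomes, had 40 CpG pairs and 5 GC boxes (GGGCGG). A GC box was also in Abca8b (1 match), in neither Abca8a nor Abca9, and in 35.7% of promoters. The LXR element DR4, the letters AGGTCA repeated in the same direction with 4 bases between, was in none of the windows and in 0.0152% of promoters. Both were searched on both strands, and a match is not shown to be a used site.

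Library depth was 507 to 209091 reads in genes, 2263832 over the 28 libraries, of which ribosomal RNA rows held 25.1 to 63.8%. A gene with 0 reads could still have made up 14.3 to 5917 CPM, taking 3 reads as the limit. Such limits, and the intervals below, cover counting error only. The thinnest libraries were GFP+ thyroid replicate 4 at 6 months (507 reads), GFP+ salivary replicate 1 (993), GFP+ thyroid replicates 1 and 2 at 3 months (1562 and 5896), GFP− thyroid replicate 2 at 6 months (4845) and GFP− thyroid replicate 1 at 9 months (5884). In the GFP+ salivary group 79225 of 92013 reads came from replicate 3. Group levels below are pooled, the summed reads of a group over its summed library sizes, which gives deep libraries their weight. Thyroid libraries held Tg, the thyroglobulin gene, at 4551 ± 2496 CPM when sorted GFP− and 1559 ± 1247 CPM when sorted GFP+ (mean ± SD, n = 11 libraries each). They also held Pth, the parathyroid hormone gene, at 25780 ± 19320 and 15230 ± 16860 CPM.

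In GFP+ thyroid cells the 4 genes together stood at 1547 CPM at 3 months, 1276 at 6 months and 1531 at 9 months. Abca8a was the most read of them. Its level in the 4 libraries at 3 months was 1280, 678, 2253 and 1052 CPM. At 6 months it was 1258, 852, 864 and 0 CPM, and at 9 months 768, 1057 and 1628 CPM. The one library at 0 was the one with 507 reads in all, where the limit was 5917 CPM. All the other 10 GFP+ libraries held Abca8a, from 2 reads in the smallest to 184 in a deep one.

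Abca8b, the sister gene of Abca8a, was read at 0, 0, 376 and 246 CPM in the GFP+ libraries at 3 months. It stood at 200, 91.7, 215 and 0 CPM at 6 months and at 138, 247 and 442 CPM at 9 months. The 3 libraries at 0 were all under 10000 reads in genes. Abca9 stood at 0, 0, 215 and 120 CPM at 3 months, 153, 39.3, 118 and 0 CPM at 6 months, and 46.1, 123 and 81.4 CPM at 9 months, with its zeros in the same 3 libraries. Abca6 had only 16 reads in the 11 GFP+ libraries: 4 in 1 library at 3 months, 2, 1 and 7 in 3 libraries at 6 months and 2 in 1 library at 9 months. Its pooled level was 18.2 CPM. Abca5, the fifth gene of the cluster, had 14 reads (15.9 CPM). Every GFP+ thyroid library over 10000 reads held Abca8a, Abca8b and Abca9.

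**Figure D1:**
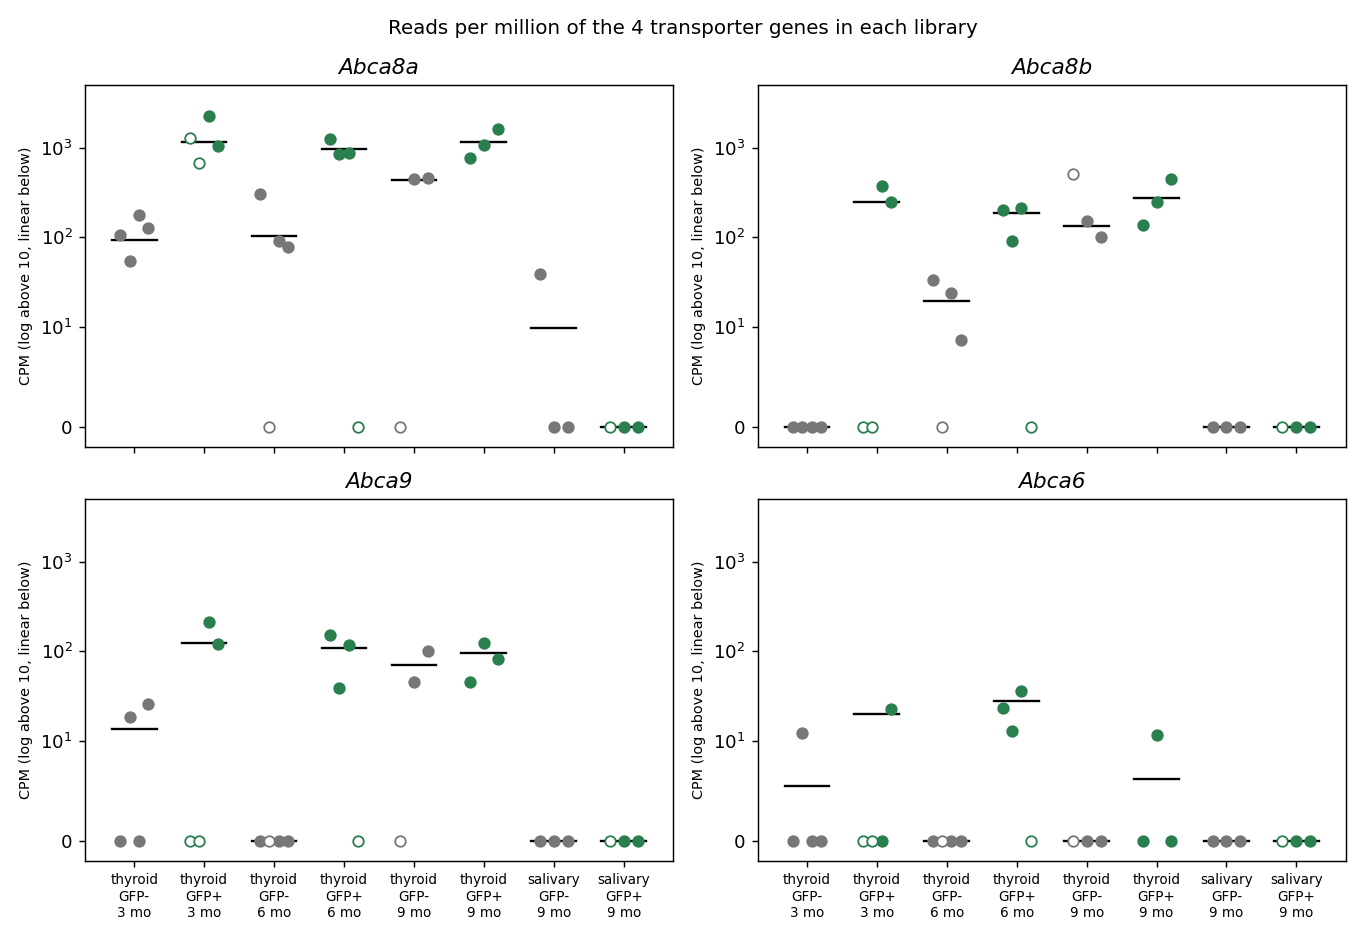
CPM of each of the 4 genes (symmetric log axis, linear below 10) in every library, by gland, GFP fraction and age. Green points are GFP+, grey points GFP−, open points are libraries under 10000 reads in genes, and the bar is the pooled level of the group. Abca8a bars stand at 1154, 954 and 1151 CPM in GFP+ thyroid and at 93.7, 103 and 439 CPM in GFP− thyroid, while every GFP+ salivary point is at 0.

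GFP− thyroid libraries carried the same genes at lower levels, with more reads at 9 months than before. Abca8a stood at 107, 55.0, 179 and 128 CPM at 3 months and 301.7, 0, 90.9 and 78.0 CPM at 6 months. At 9 months it stood at 0, 445 and 453 CPM, the zero being in the library with 5884 reads. Both deep libraries at 9 months lay above 7 of the 8 younger GFP− libraries. The eighth, replicate 2 at 6 months, had 0 reads and a limit of 619 CPM, so its place is not known. Abca8b had 0 reads in all 4 libraries at 3 months, a pooled limit of 8.27 CPM. It had 1, 0, 5 and 1 reads at 6 months and 3, 20 and 13 reads at 9 months (510, 151 and 99.8 CPM). Younger GFP− libraries with reads reached 33.5 CPM at most. Of those with 0 reads, replicate 2 at 6 months (limit 619 CPM) and replicate 3 at 3 months (107 CPM) cannot be placed below all 3 libraries of 9 months. The 510 CPM rest on 3 reads. Abca9 had 0, 3, 0 and 2 reads at 3 months, none at 6 months and 0, 6 and 13 reads at 9 months. Abca6 had 2 reads in 1 library at 3 months and none later.

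Over the 3 ages the 4 genes together stood at 1431 CPM in GFP+ thyroid against 260 CPM in the GFP− fraction, a ratio of 5.50 (95% counting interval 4.80 to 6.31). This difference follows from how the genes were picked. It was 13.7-fold at 3 months (9.86 to 19.4), 10.4-fold at 6 months (7.63 to 14.5) and 2.38-fold at 9 months (1.996 to 2.84). For Abca8a the ratios were 12.3, 9.26 and 2.62. Abca8b was at least 30.1-fold higher at 3 months, where the GFP− side had 0 reads, and 9.48-fold and 2.07-fold higher later. Abca9 was 9.02-fold higher at 3 months, at least 13.1-fold at 6 months and 1.36-fold at 9 months, where the counting interval (0.747 to 2.56) includes equal levels. For Abca6 the ratio at 3 months was 3.61 with an interval of 0.517 to 39.9, and it was at least 3.35 at 6 months. At 9 months both sides had too few reads for a ratio.

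**Figure D2:**
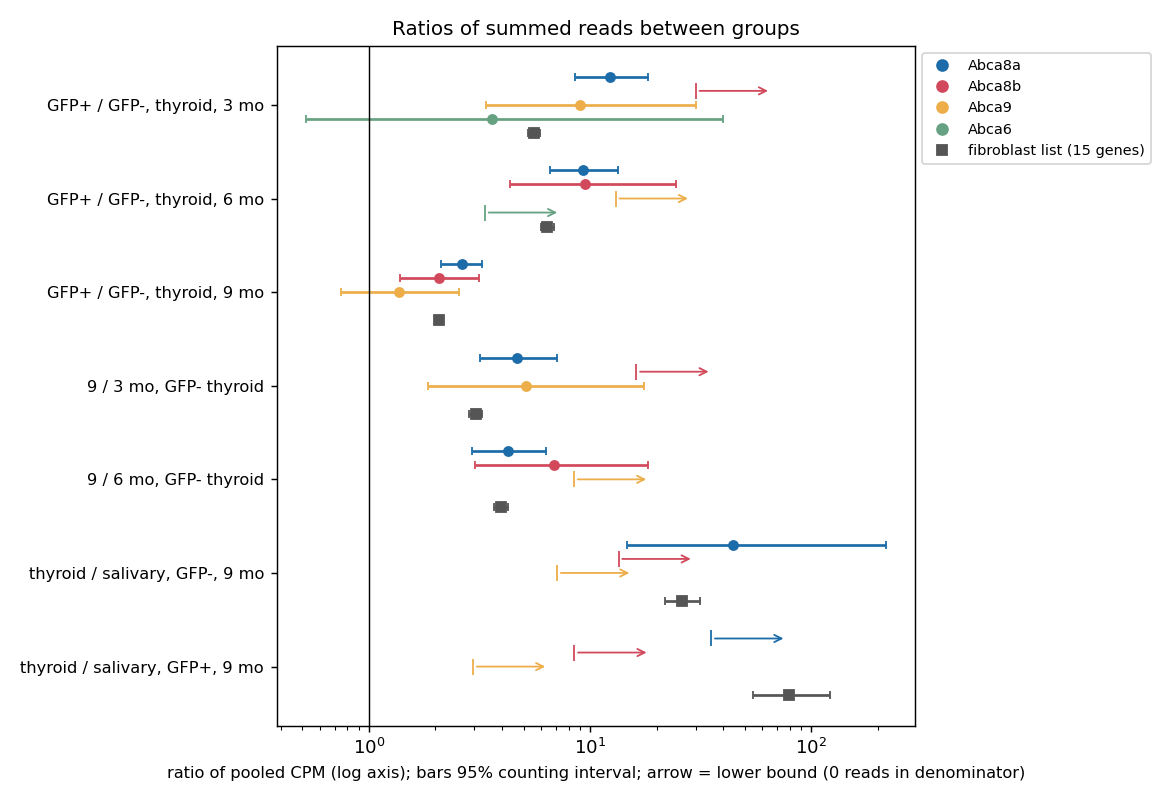
Ratio of pooled CPM between groups (log axis) for each gene and for the summed fibroblast list, with 95% counting intervals. Arrows start at a lower bound where the second group had 0 reads, and ratios with both groups at or under 3 reads are left out. The GFP+ to GFP− ratio of Abca8a falls from 12.3 at 3 months to 2.62 at 9 months, and that of the fibroblast list from 5.55 to 2.08.

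Fits across all genes add the spread between libraries. Of the 4 genes, 3 passed the filter on low counts among 1900 genes tested in the 22 thyroid libraries, and Abca6 did not. Genes this low pass largely through the groups where they are high, so their number called is not support. The mean log2 difference of GFP+ against GFP− over the ages was 2.31 ± 0.42 for Abca8a (fitted value ± SE), 3.48 ± 0.55 for Abca8b and 2.97 ± 0.65 for Abca9, against a median of −0.08 over all tested genes. The last 2 values include an age with 0 reads in the GFP− fraction and depend on how the fit treats zeros. No call is given for the 3 genes, since their choice fixes the direction. Of all tested genes 20.2% were called at an adjusted p under 0.05. Scaling by DESeq2 size factors raised the median of all genes by 0.30 and changed the share of calls that were higher from 56.4 to 70.7%. The 3 genes stayed higher under it.

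By age, the fitted difference for Abca8a was 2.86 ± 0.72 at 3 months, 2.56 ± 0.71 at 6 months and 1.52 ± 0.72 at 9 months. Without GFP+ replicate 3 at 3 months the first of these was 2.24. For Abca8b it was 2.72 ± 0.78 at 6 months and 0.80 ± 0.68 at 9 months. For Abca9 it was 2.62 ± 0.96 at 3 months and 0.26 ± 0.85 at 9 months. That last value was −0.14 without GFP+ replicate 2 and 1.22 without GFP− replicate 3, so its direction rests on single libraries.

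Whether the transporters differ with age was tested within each fraction, and the GFP− libraries played no part in the choice of the genes. In the GFP− fraction Abca8b and Abca9 differed over the 3 ages and Abca8a did not pass the test. Of all tested genes 1.53% were called. The members entered the fit largely through their GFP+ libraries, so their number is not read against that share. Abca8b rose from 0 reads at 3 months to 134 CPM at 9 months, at least 16.2-fold, or at least 8.90-fold without GFP− replicate 2 at 3 months (edgeR quasi-likelihood test over 3 ages, adjusted p = 0.000323). Its 9-month level against 3 months alone gave an adjusted p of 0.000192. Of all tested genes 0.684% were called between these ages, a share the member's call is not read against. Against 6 months Abca8b was 6.87-fold higher (log2 difference 2.61 ± 0.84, adjusted p = 0.223). Abca8b kept its call over the 3 ages in all 28 alternative fits that gave it an adjusted p, with values from 6.46e-05 to 0.0290. These fits reuse the same libraries and are not separate support. In a fit of the GFP− groups alone, neither Abca8b nor Abca9 passed the filter on low counts. Their calls with age thus depend on the GFP+ libraries that entered the fit.

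Abca9 also differed between ages in GFP− cells (edgeR adjusted p = 0.0434), with 13.8 CPM at 3 months, 0 reads at 6 months and 70.7 CPM at 9 months. The 9-month level was 5.13-fold above 3 months (log2 difference 2.16 ± 0.97, adjusted p = 0.382) and at least 8.47-fold above 6 months (adjusted p = 0.0951). The adjusted p over the 3 ages was 0.486 when GFP− replicate 3 at 9 months was omitted, and the call also failed when 1 of these was omitted: GFP− replicate 2 at 9 months (0.111), GFP− replicate 4 at 3 months (0.0669) or any 1 of the GFP+ replicates 1, 2 and 3 at 9 months (0.0697, 0.0984 and 0.0737). It was also lost with no filter on low counts (0.325). Abca9 still passed that filter in 15 of the 22 fits that left out 1 library. Over its 20 alternatives the adjusted p ran from 0.0199 to 0.486.

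Abca8a, the most read of the 3, was 4.69-fold higher at 9 than at 3 months in GFP− cells by pooled reads (3.18 to 7.08), and did not pass the test (log2 difference 1.65 ± 0.74, edgeR adjusted p = 0.381, over 3 ages 0.354). Without the libraries under 10000 reads, which include the 9-month library at 0, the log2 difference was 2.06 (adjusted p = 0.00198), and the genes called between these ages over the whole table rose from 13 to 42. The adjusted p of Abca8a over 3 ages was 0.0232 with DESeq2 size factors and 0.0335 in a fit of the GFP− groups alone, so its call depends on the processing.

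In the GFP+ fraction none of the 3 tested genes passed the test over the 3 ages with edgeR (unadjusted p 0.477 for Abca8b, 0.952 for Abca9 and 0.797 for Abca8a, so none was under 0.05 before adjustment either), and none did with DESeq2. Of all tested genes 1.58% did. Pooled Abca8a levels of 1154, 954 and 1151 CPM at the 3 ages differed less than the libraries within an age, which ran from 678 to 2253 CPM at 3 months.

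The narrowing of the GFP difference was fitted as an interaction of fraction and age. The GFP+ libraries that chose the genes enter this contrast, so its values describe the fit and are not independent of the choice. For Abca8b the GFP difference was 6.11 ± 1.48 smaller at 9 than at 3 months on the log2 scale (a fitted change of −6.11, edgeR adjusted p = 0.0184). Of all tested genes 0.316% were called, and nothing is read from the member's call beside it. The size of this value rests on the 0 reads at 3 months. The call was lost without any 1 of 10 libraries, with adjusted p from 0.0506 to 0.370. These were GFP+ replicates 3 and 4 and GFP− replicates 1, 2 and 4 at 3 months, and GFP+ replicates 1 and 2 and GFP− replicates 1, 2 and 3 at 9 months. DESeq2 gave 0.136, and a fit with no filter on low counts 0.646. For Abca9 the change was −2.36 ± 1.28 (adjusted p = 0.944) and for Abca8a −1.34 ± 0.99 (adjusted p = 0.976). Over all 3 ages together no member passed with edgeR (Abca8b adjusted p = 0.0577, Abca9 0.329, Abca8a 0.9999), though 2 of them were under 0.05 before adjustment, and 0.158% of genes passed. With DESeq2 none passed either.

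Salivary gland cells held almost none of these transcripts. All 3 GFP+ salivary libraries had 0 reads of each of the 4 genes, a pooled limit of 32.6 CPM that comes mostly from replicate 3. Against GFP+ thyroid at 9 months this gave Abca8a at least 35.3-fold, Abca8b at least 8.50-fold and Abca9 at least 2.96-fold higher in thyroid, which the choice of the genes fixes. Without salivary replicate 3 the bounds fell to 4.91 and 1.18 for the first 2, and no bound remained for Abca9. GFP− salivary libraries, which did not choose the genes, held 3 reads of Abca8a in replicate 1 (39.2 CPM) and 0 reads of Abca8a in replicates 2 and 3. Abca8b, Abca9, Abca6 and Abca5 had 0 reads there, a pooled limit of 9.96 CPM.

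In GFP− cells at 9 months Abca8a was 44.1-fold higher in thyroid than in salivary gland (14.7 to 217, from 118 against 3 reads). Abca8b was at least 13.5-fold and Abca9 at least 7.10-fold higher. Of the 4 genes, 2 entered the fit of the 12 libraries at 9 months, and both were called. Of the 974 genes tested 14.2% were called. The GFP+ thyroid libraries that chose the genes count in this fit's filter, so the members' number is not read against that share. In a fit of the GFP− groups alone Abca8a did not pass the filter and was not tested. Its call thus depends on the GFP+ libraries that entered the fit. Abca8b was tested there and called. The log2 difference was 3.18 ± 1.07 for Abca8a (edgeR quasi-likelihood test, adjusted p = 0.0288), and Abca8b had an adjusted p of 0.0101. For Abca8a this fitted difference is smaller than the pooled ratio of 44.1, which does not use the scaling factors of the fit. DESeq2 size factors raised the median of all genes by 1.43 in this contrast and changed the share of calls that were higher from 69.6 to 93.6%. Under them Abca8a stood 4.64 higher (adjusted p = 6.51e-06), still above the median of 1.60.

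Single salivary libraries weigh on this comparison. Without GFP− salivary replicate 3, the deepest, Abca8a was 16.5-fold higher (log2 difference 1.95, adjusted p = 0.479), Abca8b at least 5.03-fold (adjusted p = 0.309) and Abca9 at least 2.66-fold. Without GFP− salivary replicate 1, which held the 3 reads, Abca8a had 0 salivary reads and was at least 32.9-fold higher. The Abca8a call was also lost without GFP− salivary replicate 2 (adjusted p = 0.161), GFP− thyroid replicate 2 or 3 (0.120 and 0.189), GFP+ thyroid replicate 2 (0.0537) or GFP+ salivary replicate 2 (0.0521). With no filter on low counts the adjusted p was 0.423 for Abca8a and 0.164 for Abca8b, and with all 28 libraries in 1 fit it was 0.0762 for Abca8a.

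Abca8a gave most of the family's reads in both thyroid fractions. In GFP+ cells Abca8a gave 74.9% of the 1259 reads of the 4 genes (95% Wilson interval 72.4 to 77.2), Abca8b 16.3% (14.4 to 18.4), Abca9 7.55% (6.21 to 9.14) and Abca6 1.27% (0.784 to 2.05). In GFP− cells Abca8a gave 73.3% of 258 reads (67.5 to 78.3), Abca8b 16.7% (12.6 to 21.7) and Abca9 9.30% (6.33 to 13.5). Across the 8 GFP+ libraries with at least 20 such reads, the share of Abca8a ran from 70.1 to 85.5%. These intervals, pooled over the ages, overlap between the fractions for each gene named. At 3 months alone those of Abca8b did not overlap. Its share there was 0% in GFP− cells (0 to 8.57, 41 reads) and 16.1% in GFP+ cells (12.4 to 20.6). By age, the share of Abca8a in GFP− cells was 82.9% at 3 months (68.7 to 91.5, 41 reads), 84.1% at 6 months (70.6 to 92.1, 44 reads) and 68.2% at 9 months (60.9 to 74.7, 173 reads), so most GFP− reads come from 9 months. In GFP+ cells it was 74.6, 74.8 and 75.2%. Reads of 3′ libraries come from transcript ends and were not divided by length, so these are shares of reads. The annotated ends of the similar genes differ in sequence (GENCODE vM21, build GRCm38). None of the 471 stretches of 30 bases in the last 500 bases of each member's longest transcript occurred in another gene. Other transcript ends were not checked. The aligner and counter are not given, so how reads were assigned was not tested.

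**Figure D3:**
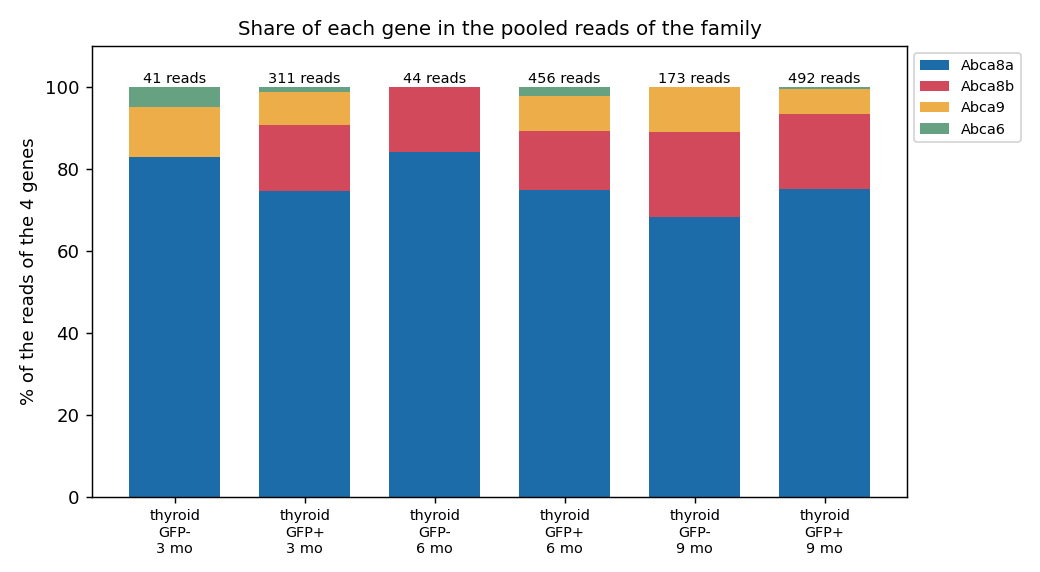
Percent of the reads of the 4 genes that each gene contributed (stacked bars from 0 to 100%), pooled by thyroid group, with the number of reads above each bar. Abca8a holds 68.2 to 84.1% in every group, and Abca8b is missing at 3 months in the GFP− fraction, where the bar rests on 41 reads.

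Fibroblast markers were high in the same groups as the transporters. The summed 15 fibroblast markers stood at 20520, 18140 and 23370 CPM in GFP+ thyroid at 3, 6 and 9 months. In GFP− thyroid they stood at 3696, 2834 and 11240 CPM, a 3.04-fold ratio of 9 to 3 months (2.85 to 3.24) beside 5.70-fold for the transporters (4.03 to 8.22). Single GFP− libraries held 2610 to 4201 CPM of the list at 3 months. The range was 2444 to 8050 CPM at 6 months and 4759 to 12870 CPM at 9 months. Salivary libraries held 431 CPM (GFP−) and 293.4 CPM (GFP+). Of the 15 markers, 13 were higher in GFP+ than in GFP− thyroid (median log2 difference 2.04 against −0.08 over all genes, where 11.4% were higher). With age in GFP− cells 1 of 15 rose from 3 to 9 months (median 1.62 against −0.06), where 0.684% of all genes were called. All 15 markers had reads. In these bulk libraries more cells of a type and more RNA per cell cannot be told apart, and the part of fibroblast content in the transporter levels was not tested.

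Counted against the fibroblast list, the transporters gave 7.54, 7.03 and 6.55 reads per 100 fibroblast reads in GFP+ thyroid at 3, 6 and 9 months. In GFP− thyroid the figures were 3.06, 4.32 and 5.73. Single libraries over 10000 reads ran from 3.98 to 13.6 in the GFP+ and from 2.04 to 6.85 in the GFP− fraction, so the fractions overlap. GFP− salivary libraries gave 3 transporter reads for 130 fibroblast reads (2.31 per 100), and GFP+ salivary libraries 0 for 27.

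**Figure D4:**
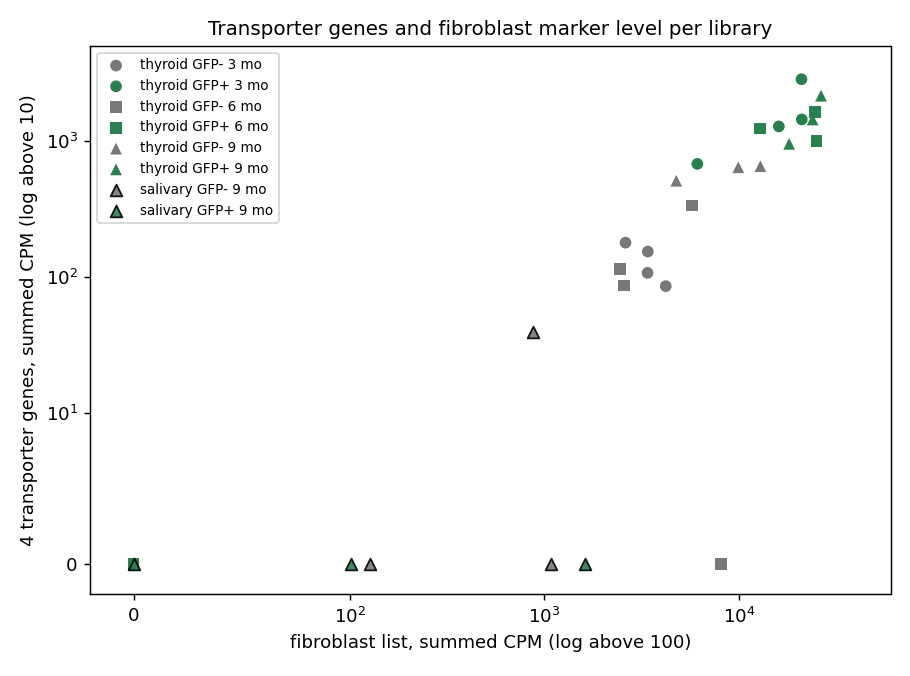
Summed CPM of the 4 transporter genes against summed CPM of the 15 fibroblast markers in each library (symmetric log axes, linear below 10 and below 100). Green is GFP+ and grey is GFP−, shapes give the age, and black outlines mark salivary gland. Most thyroid points with reads lie along one band, from GFP− at 3 and 6 months through GFP− at 9 months to GFP+, and salivary points lie at or near 0.

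The pericyte and smooth muscle list went from 334 CPM at 3 months to 245 at 6 and 677 at 9 months in GFP− thyroid, and 0 of its 5 tested genes were called between 3 and 9 months with edgeR (3 were under 0.05 before adjustment, and DESeq2 called 0 of the 2 it gave an adjusted p). Their median log2 difference between these ages was 2.17, beside 1.62 for the fibroblast list. In GFP+ against GFP− cells 3 of those 5 were higher (median log2 difference 1.72), where 11.4% of all tested genes were. Among the 3 was Acta2, smooth muscle actin (log2 difference 2.51, edgeR adjusted p = 4.69e-07). Rgs5 had a log2 difference of 0.46 ± 0.37. Of 8 tested endothelial genes 7 were lower in GFP+ thyroid, where 8.79% of all genes were. The list stood at 7575, 2561 and 3227 CPM in GFP− cells over the ages. Kdr and Flt1, which encode receptors for vascular endothelial growth factor, were its most read genes.

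Of 5 tested thyroid follicular genes 3 were lower in GFP+ thyroid, where 8.79% of all tested genes were. Among the 3 were Tg and Iyd, an iodide recycling enzyme. All 3 tested genes of the C cell list were lower, with Chga and the calcitonin gene Calca the most read. Both tested parathyroid genes, Pth and Kl, were lower too. The log2 difference was −1.56 ± 0.49 for Chga, nearer to Pth (−1.57 ± 0.48) than to Calca (−4.65 ± 0.54). Which cells gave the Chga reads was not tested. The adipocyte list had 1 tested gene, Fabp4, a fatty acid binding protein, at 553 ± 675 CPM (GFP+) and 499 ± 311.4 CPM (GFP−) (log2 difference −0.15 ± 0.39). Fabp4 gave 504 of the 510 reads of this list in GFP+ and 495 of 496 in GFP− thyroid. The other adipocyte markers were thus almost unread. Leukocyte and Schwann cell lists had no tested gene. Lyz2 and H2-Aa, the most read leukocyte genes, had 65 and 31 reads in all thyroid libraries, while the other 7 leukocyte markers, Ptprc, Cd68, C1qa, C1qb, Adgre1, Cd3e and Cd79a, had none. Mbp of the Schwann cell list, which encodes a myelin protein, had 31 reads. The salivary acinar and duct lists stood at 47730 and 13950 CPM in GFP− salivary libraries and at 44.7 and 29.8 CPM in GFP− thyroid at 9 months. By mean CPM over thyroid libraries, Aqp5, a water channel, and Dcpp2 led the first list there, and the keratins Krt7 and Krt19 the second. By reads in thyroid, Dcpp1 (41) stood above Dcpp2 (34).

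Other lipid transporters of the ABC class were barely read. None of 12 other ABCA genes, Abca5 among them, passed the filter on low counts, and 6 had reads in any of the 28 libraries. Abca1 had 41 reads in GFP+ and 12 in GFP− thyroid, and Abca2 had 25 and 17. None of 14 further ABC lipid transporters passed either, with Abcg2 (38 and 67 reads) and Abcd3 (37 and 52 reads) the most read. The 4 genes of the cluster had 1259 and 258 reads in the same libraries.

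Cholesterol efflux genes had few tested members. Of 17 genes, 2 were tested and both were higher in GFP+ thyroid, where 11.4% of all tested genes were. Apod, a lipid carrier, stood at 206 ± 159 CPM in GFP+ libraries against 41.5 ± 57.1 CPM (log2 difference 2.16, edgeR adjusted p = 4.3e-06). Apoe, the apolipoprotein of lipid particles, stood at 91.6 ± 93.0 and 25.8 ± 40.9 CPM (1.83, adjusted p = 0.00428). With DESeq2 1 of the 2 was called. From 3 to 9 months in GFP− cells edgeR called 0 of the 2, with 1 under 0.05 before adjustment, and DESeq2 gave neither an adjusted p.

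Of 13 cholesterol uptake and storage genes 5 were tested. Lrp1, an endocytic lipoprotein receptor, was higher in GFP+ thyroid at 295.2 ± 204 against 138 ± 131 CPM (log2 difference 1.55, edgeR adjusted p = 0.00101). Scarb1, the receptor for high density lipoprotein, was lower at 9.88 ± 13.8 against 116 ± 93.9 CPM (−2.61, adjusted p = 0.000257). Of 15 cholesterol synthesis genes 1 was tested and not called: Hmgcs1, an early enzyme of the pathway, at 90.6 ± 103 and 53.8 ± 48.8 CPM (0.35, adjusted p = 0.692). None of the 4 tested of 20 sphingomyelin and ceramide genes was called with edgeR or DESeq2, and 0 were under 0.05 before adjustment. Among them Psap, the precursor of saposins, stood at 169 ± 139 and 238 ± 107.6 CPM (−0.43, adjusted p = 0.523) and Degs1, a ceramide desaturase, at 116 ± 110 and 122 ± 173 CPM (0.57, adjusted p = 0.383).

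Genes were ranked by how closely their levels followed the summed transporters. Likeness was Pearson's r of log2(CPM + 10) over the 17 thyroid libraries with at least 10000 reads (8 GFP+ and 9 GFP−), ranked over 1871 genes with a median r of 0.12. The first 8 were Frmd6 (0.948), the collagen gene Col6a3 (0.948), decorin (Dcn, 0.946), S100a6 (0.944), dermatopontin (Dpt, 0.944), Clec3b (0.943), versican (Vcan, 0.936) and the collagen gene Col1a2 (0.934). Of these, Dcn, Dpt and Col1a2 are in the fibroblast list. The points share libraries and the large GFP difference, and the order among close values is loose: all 22 libraries or Spearman's rho each kept 1 of the 8. Within the GFP− libraries alone r ran from 0.750 (Vcan) to 0.947 (Frmd6). Within the GFP+ libraries it ran from −0.05 (Col1a2) to 0.815 (Col6a3), with Clec3b at 0.728, Vcan at 0.690 and Frmd6 at 0.549.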

How the data were processed

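The deposited tables hold whole-number read counts per gene, 1 table per library, for 28 libraries. Per the labels' protocols, RNA was column purified with DNase treatment and made into libraries with a 3′ mRNA kit. Per the submitters' processing notes, bcl2fastq and the genome build mm9 were used. The aligner and counter are not given in the sources used here. Each table has 47643 gene rows and 5 summary rows, which stayed out of library sizes. Reads outside genes made up 13.3 to 85.8% per library. Of the identifiers, 47224 matched GENCODE vM21 names and 419 did not. Reads in genes ran from 507 to 209091 per library. Among the 36 same-group library pairs 0 were copies: chi-square divided by its degrees of freedom was 2.43 or more, with 11 pairs too shallow to test.

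Tests used edgeR 4.0.16 in R 4.3.3: TMM factors, filterByExpr defaults (minimum 10, total 15), robust quasi-likelihood fits without blocks, and Benjamini-Hochberg adjustment over all tested genes at 0.05. The 22 thyroid libraries formed 1 fit of 6 groups (1900 genes), and the 12 libraries at 9 months a second of 4 groups (974 genes). Ratios use pooled counts with exact 95% intervals and no TMM factors. Those factors ran from 0.574 to 10.7 in the thyroid fit and from 0.232 to 7.11 in the second. Ratios and fitted differences are thus unlike measures. With 0 reads, 3 reads over the group set the bound. The scripts were tested on simulated data. As alternatives, DESeq2 1.42.0 replaced edgeR or gave it size factors. Further alternatives were no filter and a stricter filter (20 counts in 50% of libraries), all 28 libraries, only the groups compared, a replicate block, no libraries under 10000 reads, no ribosomal RNA rows, and leaving out each library.

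The members and lists were chosen with earlier results of these data known. Named genes are the 4 members and Abca5. They also include up to 4 called genes by adjusted p per pathway list, or the 2 highest in mean thyroid CPM if none was called. The 2 highest by that mean per marker list and the 8 most similar genes were added. Of the genes so named, 2 are not reported here. Promoters come from RefSeq tables of build GRCm38.p6, which is not the build of the counts and was used for names and sequences only.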

Additional observations from a re-analysis of the deposited data

Results flagged for a closer look

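For Abca8b, the GFP+ against GFP− difference changed by −6.11 on the log2 scale from 3 to 9 months (edgeR quasi-likelihood test of the interaction, adjusted p = 0.0184). The change between the ages was itself fitted, and 16 of its 29 alternative fits passed. Those fits reuse the same libraries and are not separate support, and nothing is read from the call. The contrast takes in the GFP+ libraries that chose the genes, and its size rests on 0 reads in GFP− cells at 3 months.

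Abca6 in GFP+ thyroid replicate 4 at 3 months stood at 22.9 CPM (4 reads) with the other 3 libraries at 0, and in GFP− thyroid replicate 2 at 3 months at 12.2 CPM (2 reads) with the other 3 at 0. Each meets Dixon's criterion at the 95% level, as any read does beside 3 libraries at 0. These were 2 of 17 groups examined, where chance alone gives about 1 in 20. Both libraries are the deepest of their group (174957 and 163544 reads), and in all 6 shallower libraries the limit at 0 reads lies above these levels, so the libraries are not shown to differ.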

How the results depend on the processing

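With the replicate number as a block, 1 of 3 tested members differed with age in GFP− thyroid (2 without it) and 1 of 2 between glands in GFP− cells (2 without it). The interaction of Abca8b was then −4.89 (adjusted p = 0.993), Abca9 with age had an adjusted p of 0.122 and Abca8a between glands 0.118. The numbers do not pair the libraries: 3 of 11 pairs of fractions, 0 of 20 pairs of ages and 0 of 3 pairs of glands had residual correlations above 0.1. The best correlation was with the own number in 5, 3 and 0 of them.

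The count of members differing with age in GFP− thyroid was 1 with no filter, 1 with all 28 libraries and 1 with only the groups compared, where 4, 2 and 1 members were tested, and 1 to 2 without 1 library. The count for the GFP difference by age was 0, 1 with DESeq2 size factors, 1 without libraries under 10000 reads, and 0 to 1 without 1 library. Between glands in GFP− cells it was 0 with no filter, 1 with all 28 libraries and 1 with only the groups compared. Abca8a was not tested in the last of these. Without 1 library the count between glands was 0 to 2. For the 4 genes summed, the lower bound of the log2 ratio of thyroid to salivary gland in GFP+ cells, 5.55, was 4.83 without ribosomal RNA rows and 2.71 to 5.69 without 1 library. Abca9 at 9 months (log2 difference 0.26) ran from −0.14 to 1.22 without 1 library, and reversed without GFP+ thyroid replicate 2. The stricter filter left no member to test, and DESeq2 gave no adjusted p for Abca8b and Abca9 with age in GFP− thyroid, so these have no value. Except for fewer members tested, the cause of these changes was not tested.

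Counts over all genes moved by more than 1.5 times: with age in GFP+ thyroid 30 became 2 (DESeq2) to 56 (no filter), with age in GFP− thyroid 29 became 2 (block) to 96 (without libraries under 10000 reads), between 9 and 3 months 13 became 1 to 42, for the interaction 3 became 0 to 17, for GFP in thyroid 383 became 89 (stricter filter) to 489, and between glands 138 became 21 (stricter filter) to 501 (DESeq2 size factors). The first 8 similar genes numbered 6 in common with log2(CPM + 1) and 5 with log2(CPM + 50). Depth limits Abca6 and Abca5, which no fit tested with the filter, and every statement on salivary GFP+ cells.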
